A study of Mus musculus with 2 samples.

Results

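The cells described here are those labelled SNAT2 fibroblasts in the finer annotation that the authors deposited with each cell of mouse lung fibroblastic stroma. All cells with that label were taken, 810 of 6971 cells in the library from mice on a high fat diet (HFD) and 989 of 9015 cells in the library from mice on normal chow (NC), 1799 of 15986 in all. Both groups were C57Bl/6J mice, and both diets had been given for 16 weeks. Each diet is 1 droplet library, so no value below has a replicate and no test was made. The age of the mice and the number of animals behind each library are not given in the sources used here. How the labels were assigned is not given in the sources used here. Contrasts between labels are therefore given as descriptions of these libraries, since the labels may rest on the same expression values. In the coarser annotation all 810 and all 989 of these cells belong to the Asc1 fibroblasts. They are therefore set against the remaining Asc1 fibroblasts of the finer column, 2957 cells in HFD and 3724 in NC.

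SNAT2 is the protein of Slc38a2, a sodium-coupled transporter that carries small neutral amino acids such as glutamine, alanine and serine into cells. Its transcript is known to be induced when amino acids are scarce and by hyperosmotic stress. Asc-1 is the protein of Slc7a10, an exchanger of small neutral amino acids. In mouse lung, Slc7a10 and Npnt are often used to mark fibroblasts of the alveolar wall, Pi16 and Dcn those of the adventitia around large vessels and airways, and Hhip and Aspn myofibroblasts of the alveolar ducts. Malat1 and Neat1 are long noncoding RNAs that stay in the nucleus, Malat1 at nuclear speckles and Neat1 as the scaffold of paraspeckles. Macf1 encodes a very large linker between microtubules and actin.

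SNAT2 fibroblasts made up a like share of the coarser Asc1 label on either diet, and most of them were shallow cells with a high mitochondrial share. Of SNAT2 plus Asc1 cells they made up 21.5% in HFD (exact Clopper-Pearson 95% interval 20.2 to 22.8%) and 20.98% in NC (19.8 to 22.2%). The median SNAT2 cell had 482 detected genes in HFD and 535 in NC, against 1287 and 1235 in Asc1 cells. Its median total was 2730 counts in HFD and 2346 in NC, against 8679 and 6605. Mitochondrial counts were a median 11.7% in HFD and 10.2% in NC, against 3.55% and 3.43%. Ribosomal counts were lower, at 2.28% and 1.96% against 5.37% and 4.66%, and Malat1 alone took 7.99% and 7.88% of a median SNAT2 cell against 4.69% and 4.32%. In both libraries the SNAT2 medians were the lowest of the 6 labels for genes, totals and ribosomal share, and the highest for mitochondrial share and Malat1.

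**Figure D1:**
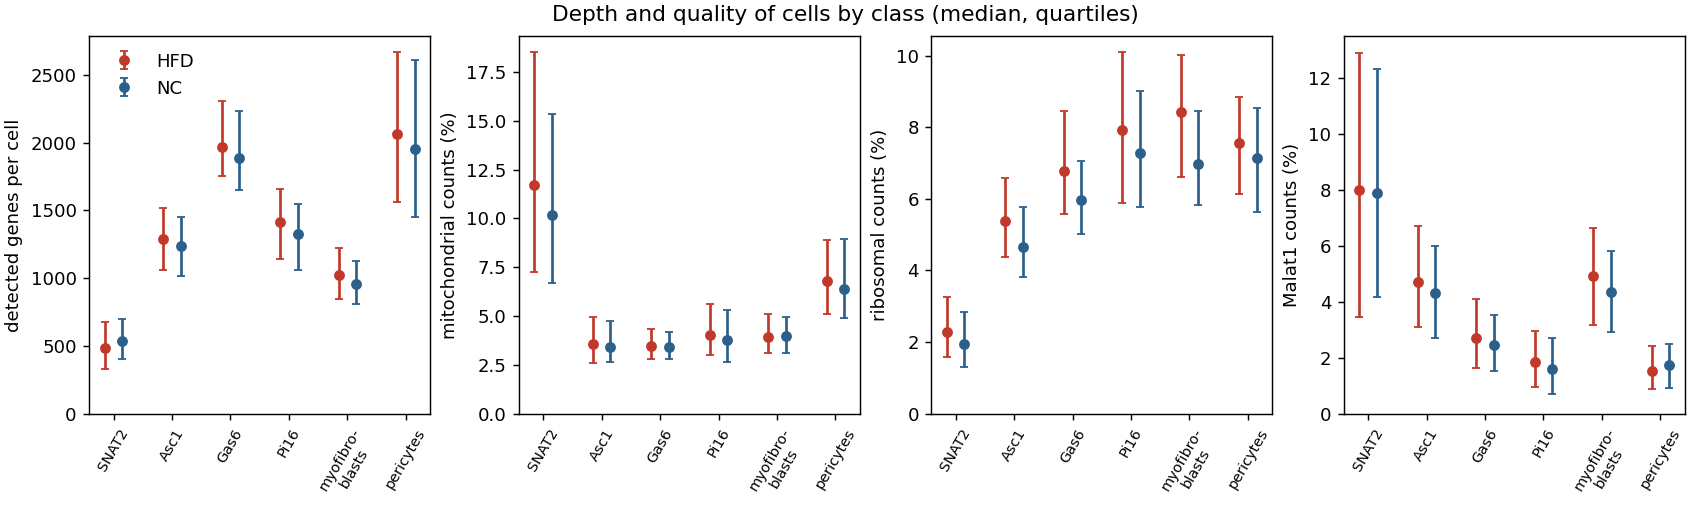
Detected genes per cell and the percent of counts from mitochondrial genes, ribosomal genes and Malat1 (y axes) for the 6 labels (x axis) in HFD (red) and NC (blue). Points are medians over cells and bars run from the lower to the upper quartile. SNAT2 cells have the lowest median of detected genes, 482 and 535, and the highest median mitochondrial share, 11.7% and 10.2%.

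A common cell filter, which keeps cells with 500 or more genes and no more than 10% of counts from mitochondria, divides the subset. It was passed by 245 SNAT2 cells in HFD (30.2%, interval 27.1 to 33.5%) and 359 in NC (36.3%, 33.3 to 39.4%), against 96.3% and 97.7% of Asc1 cells. SNAT2 cells made up 64.1% of all HFD cells that failed it and 72% of those in NC. Among cells that passed, SNAT2 fibroblasts were 7.92% of SNAT2 plus Asc1 cells in HFD (6.996 to 8.93%) and 8.98% in NC (8.11 to 9.91%). The filtered SNAT2 cells still had fewer genes than Asc1 cells, a median of 736 and 703, and a higher mitochondrial share, 6.27% and 6.44%. When every cell was thinned to 1000 counts, which left out 7 HFD and 12 NC cells of the subset, the median SNAT2 cell held 331 and 369 genes and the median Asc1 cell 528 and 525. Cell barcodes shared by the 2 libraries numbered 17 among all cells and 0 among SNAT2 cells.

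Slc38a2, the gene of the label, was highest in the SNAT2 fibroblasts, but by a small margin. Its level was 561 CPM (counts summed over the cells of a label, relative to their total) in HFD and 509 in NC, against 389 and 395 in Asc1 fibroblasts. The ratio was 1.44 in HFD (95% interval 1.28 to 1.62) and 1.29 in NC (1.15 to 1.44), with intervals that cover counting error only. The pericyte label, at 385 and 399.6 CPM, was just below the Asc1 level in HFD and just above it in NC. It lay within the interval of the Asc1 level in each library, and the other 3 labels lay between 209 and 321 CPM. A count of Slc38a2 was present in 43.2% of SNAT2 cells in HFD and 41.2% in NC, below the 63.9% and 59.9% of the deeper Asc1 cells. With all cells thinned to 1000 counts the shares were 27.4% (24.3 to 30.6%) and 25.7% (23.0 to 28.6%) in SNAT2 cells and 25.7% (24.2 to 27.4%) and 25.8% (24.4 to 27.2%) in Asc1 cells. At equal depth a cell with a count of Slc38a2 was thus about as frequent under either label.

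**Figure D2:**
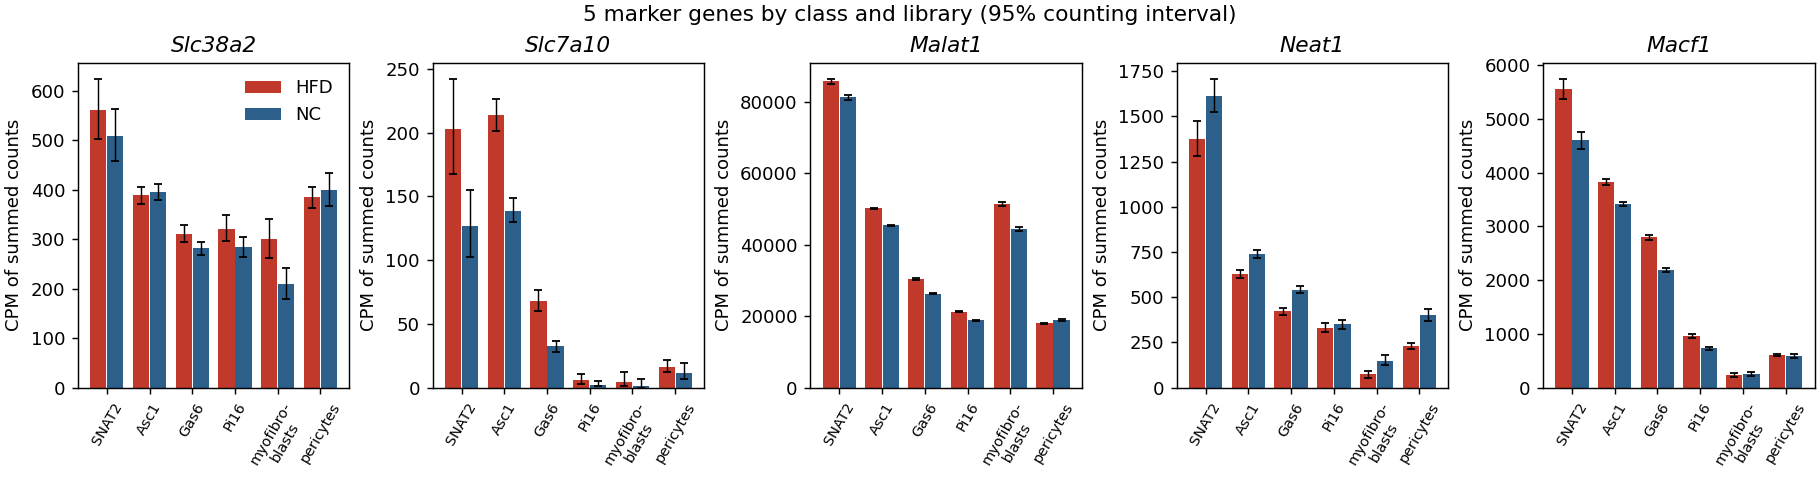
Levels of Slc38a2, Slc7a10, Malat1, Neat1 and Macf1 (y axes, CPM of summed counts, each gene on its own scale) under the 6 labels in HFD (red) and NC (blue). Error bars are 95% intervals for counting error. Slc38a2, Malat1, Neat1 and Macf1 are highest in SNAT2 fibroblasts in both libraries, while Slc7a10 is about level between SNAT2 and Asc1 fibroblasts.

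Slc7a10, summed over cells, was about level between the 2 labels. It was at 203 CPM in HFD and 127 in NC in SNAT2 cells, and at 214 and 139 in Asc1 cells, with ratios of 0.95 (0.78 to 1.15) and 0.91 (0.73 to 1.13). With cells thinned to 1000 counts it had a count in 9.84% (7.87 to 12.1%) and 7.27% (5.72 to 9.08%) of SNAT2 cells and in 15.3% and 9.67% of Asc1 cells. Gas6 fibroblasts came next, at 67.8 and 32.3 CPM. The nuclear RNAs set the subset apart more clearly than either transporter. Malat1 stood at 85672 and 81130 CPM against 50098 and 45392 in Asc1 cells, ratios of 1.71 (1.69 to 1.73) and 1.79 (1.77 to 1.80). Neat1 was at 1374 and 1615 CPM against 629 and 741, a ratio of 2.18 in each library. Macf1 was at 5559 and 4602 CPM against 3830 and 3417, ratios of 1.45 and 1.35. In filtered cells Macf1 was 1.93 and 1.68 times its Asc1 level and Neat1 3.07 and 2.83 times. Against the 13 HFD and 9 NC Asc1 cells with fewer than 500 genes, Neat1 was on the other side in HFD, 0.17 lower on the log2 scale.

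The contrasts were also read in cells matched for the number of detected genes. SNAT2 cells with 500 to 750 genes, 223 in HFD and 360 in NC, had a median mitochondrial share of 8.96% and 8.98%, against 4.31% and 3.20% in the 140 and 207 Asc1 cells of that range. Their Malat1 level was 97698 and 84631 CPM against 50836 and 29978, and their Slc38a2 level 566 and 530 CPM against 330 and 270. The Slc38a2 contrast was smaller in deeper cells. With 750 to 1000 genes its level was 417 and 520 CPM in SNAT2 cells against 399 and 455 in Asc1 cells. With at least 1000 genes it was 514 and 525 CPM against 389 and 391. SNAT2 cells with at least 1000 genes were few, 58 in HFD and 63 in NC. In these Macf1 reached 10101 and 7320 CPM and Neat1 2580 and 3038 CPM, while Malat1, at 56966 and 58465 CPM, was closer to the Asc1 level of 50120 and 45993. The deepest SNAT2 cells thus carried higher Macf1 and Neat1 and lower Malat1 than the subset as a whole.

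The genes whose level over the 6 labels and 2 libraries ran most like that of Slc38a2 were Gigyf1, Hip1, Fam71a, Vcpip1 and Srpk2, with Pearson correlations of 0.88 to 0.91 over 12 sums that share 2 libraries. Hip1 encodes an endocytic adaptor, Srpk2 a kinase of splicing factors and Vcpip1 a deubiquitinase. Fam71a was at 162 and 172 CPM in SNAT2 cells and at 61.9 and 52.9 in Asc1 cells. Srpk2 was at 116 and 87.9 CPM against 64.4 and 54.4. All 5 had their highest level in SNAT2 fibroblasts in each library, as Slc38a2 did, which their choice by likeness to Slc38a2 favours.

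Across all genes, SNAT2 fibroblasts held more genes at a lower level than at a higher one, relative to Asc1 fibroblasts. A gene was measured here if its 2 sums held at least 50 effective counts in each library, where an effective count is a count divided by the variance factor of its library and label. No test was made; a gene counted as higher or lower if the ratio of CPM was at least 1.5, or at most 1 over 1.5, in both libraries. Of 8778 measured genes 894 were higher (10.2%) and 2145 were lower (24.4%), and the median log2 ratio was −0.15 in HFD and −0.11 in NC. Genes called higher were thus 29.4% of those called. That split depended on the scale: it was 51.6% when the 20 most abundant genes were left out of the totals and 46.4% in filtered cells. At 50 effective counts and equal levels the counting interval of a ratio runs from 0.31 to 2.51 in HFD, so single genes near the minimum are not resolved. With a minimum of 200 effective counts 330 of 3832 genes were higher (8.61%) and 1411 lower (36.8%).

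The 2 genomes of the respiratory chain stood on opposite sides in SNAT2 fibroblasts. All 13 measured transcripts of the chain that are encoded in mitochondria were higher, with a median log2 ratio of 1.75 in HFD and 1.42 in NC. Of 36 nuclear-encoded subunits 33 were lower and 0 higher, with medians of −1.28 and −1.17. Both counts stand beside 10.2% higher and 24.4% lower among all measured genes. mt-Co2, a subunit of cytochrome c oxidase, was at 13462 and 11070 CPM in SNAT2 cells and 3829 and 3875 in Asc1 cells. Cox8a, a nuclear-encoded subunit of the same enzyme, was at 0.35 and 0.37 times its Asc1 level, and Uqcr10 of complex III at 0.33 and 0.37. The 3 nuclear-encoded members not called were Sdha, Atp5a1 and Atp5b. In filtered cells the mitochondrial median was 0.75 and 0.62, where the filter itself caps the mitochondrial share, and the nuclear-encoded one was −1.20 and −0.98. Against Asc1 cells that fail the filter, which were 110 in HFD and 84 in NC, the mitochondrial median was 0.15 in HFD and −0.21 in NC, while the nuclear-encoded one was −0.85 in both.

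Transcripts of the translation machinery were low in the subset. Of 30 cytosolic ribosomal protein genes 28 were lower and 0 higher, with a median log2 ratio of −1.11 in each library. All measured genes gave shares of 24.4% lower and 10.2% higher. Rpl32, of the large subunit, was at 0.36 and 0.38 times its Asc1 level. The exceptions were Rpl5 and Rps15. In filtered cells the median was −1.23 and −1.09, and against Asc1 cells that fail the filter −1.10 and −0.90. Of 24 genes of the secretory and signal peptide machinery 14 were lower and 0 higher, among them Sec61b of the translocon, at 86.1 and 85.6 CPM against 268 and 288.

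Nuclear RNAs and transcripts of very large proteins stood on the high side. Of 9 measured nuclear-retained long noncoding RNAs 7 were higher and 0 lower, with a median log2 ratio of 0.89 in HFD and 1.02 in NC. The 7 include Malat1 and Neat1, markers of the subset described above, so this count partly repeats their values. Kcnq1ot1, an imprinted antisense RNA, was at 240 and 343 CPM against 86.0 and 118, with ratios of 2.79 (2.29 to 3.38) and 2.91 (2.51 to 3.36). Of 25 cytoskeletal linkers and scaffolds of very large size 19 were higher and 0 lower, with medians of 0.85 and 0.80. The marker Macf1 is among the 25 but not among the 19. Ahnak, a giant scaffold below the plasma membrane, was at 1099 and 1024 CPM against 503 and 530. Dst, a spectraplakin like Macf1, was at 274 and 249 CPM against 126 in each library. Among 30 splicing and nuclear speckle proteins 12 were higher and 0 lower, with Son, a core speckle protein, at ratios of 1.86 and 1.87. Among 30 chromatin and transcription regulators 10 were higher and 0 lower, with Atrx at 1.83 and 1.86. These counts stand beside 10.2% higher and 24.4% lower among all measured genes. In filtered cells all 4 lists kept positive medians, between 0.58 and 1.41 over both libraries.

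**Figure D3:**
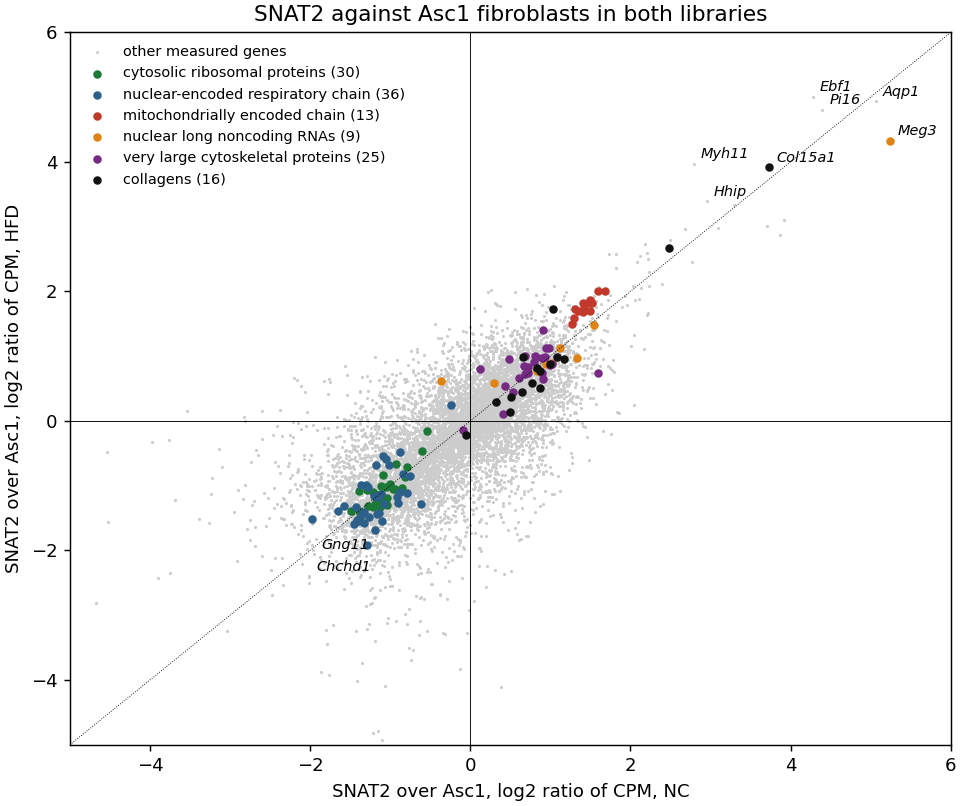
Log2 ratio of CPM in SNAT2 over Asc1 fibroblasts in NC (x axis) and in HFD (y axis) for 8778 measured genes, with 6 gene lists in colour and the number of measured members in the key. The dotted line marks equal ratios, and 3 genes lie outside the axes. Ribosomal protein and nuclear-encoded respiratory chain genes lie at the lower left, mitochondrially encoded genes, nuclear RNAs and very large cytoskeletal proteins at the upper right.

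Gene length ran through these contrasts. Lengths were taken from the longest annotated transcript of each gene, which was found for 8673 of 8763 measured genes that are not mitochondrially encoded. The ratios set against length were those of all cells of each label, and values for filtered cells are not given here. The median log2 ratio of SNAT2 over Asc1 was −1.19 in HFD and −1.13 in NC for the 922 genes with transcripts under 1 kb, and 0.58 and 0.62 for the 555 genes with transcripts of at least 8 kb. Across genes, which are not independent replicates and share the 4 sums, Spearman's rho with transcript length was 0.60 in HFD and 0.62 in NC, and with the span of the gene, introns included, 0.47 and 0.48. Genes at the short end included Tmsb4x with 0.864 kb and Gng11 with 0.919 kb. Macf1, with 23.5 kb, lay at the long end, at log2 ratios of 0.54 in HFD and 0.43 in NC, below the median of its bin. Slc38a2, with 6.12 kb, lay in the bin of 4 to 8 kb, which holds 2695 genes. Its log2 ratios were 0.53 and 0.37, and the medians of that bin 0.27 and 0.32. Reads of this kit start near the 3′ end of transcripts, but whether counts here depend on transcript length was not tested.

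Transcript length and gene span were told apart in part by a cross of both. Among genes spanning under 20 kb, the 2027 with transcripts under 2 kb had medians of −1.04 and −0.997, and the 2084 with longer transcripts −0.18 and −0.15. Among genes spanning at least 20 kb, the 320 with short transcripts had medians of −0.75 and −0.78, and the 4242 with longer ones 0.21 and 0.26. The step between short and long transcripts was thus larger than the step between short and long spans, within either class of the other. What the length trend stems from was not tested. HFD over NC in SNAT2 cells had medians between −0.13 and 0.09 over the 5 bins of transcript length.

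**Figure D4:**
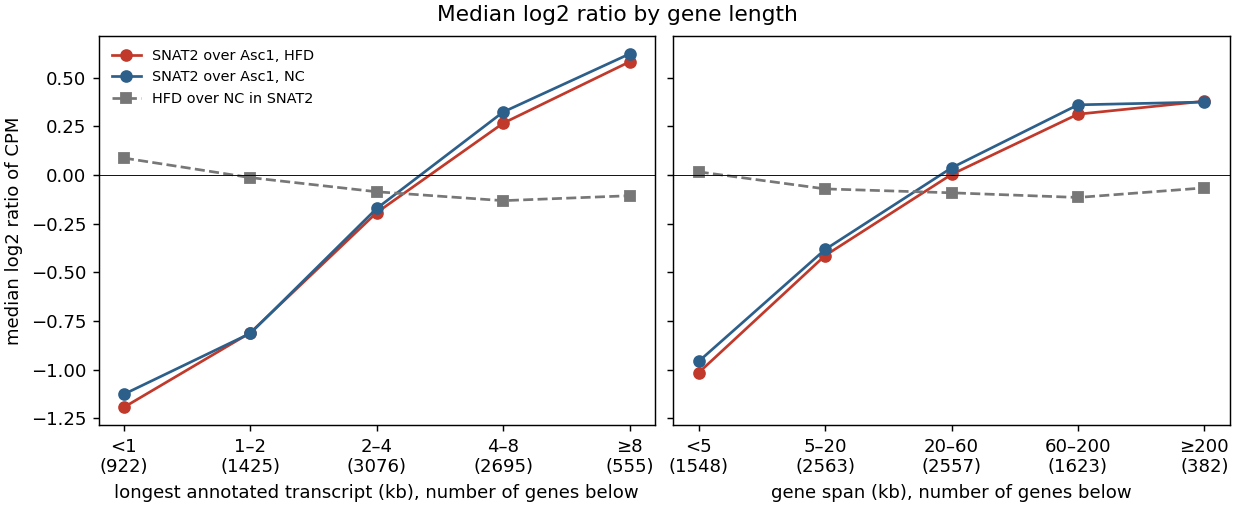
Median log2 ratio of CPM (y axis) by length of the longest annotated transcript (left) and by gene span (right), with the number of genes of each bin in brackets, for SNAT2 over Asc1 in HFD (red) and NC (blue) and for HFD over NC in SNAT2 (grey squares). The SNAT2 over Asc1 medians run from −1.19 and −1.13 in the shortest transcript bin to 0.58 and 0.62 in the longest.

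The genes ranked lowest in SNAT2 fibroblasts were mostly short transcripts that are abundant in Asc1 cells. Tmsb4x, an actin-sequestering thymosin, was at 2216 CPM in HFD and 2334 in NC against 6847 and 7057, ratios of 0.32 (0.31 to 0.34) and 0.33 (0.32 to 0.35). Tmsb10, a second thymosin, had ratios of 0.34 and 0.38, and Fth1, the ferritin heavy chain, 0.34 and 0.37. Gng11, a G protein gamma subunit, ranked first, at 242 and 169 CPM against 1008 and 653, ratios of 0.24 (0.20 to 0.28) and 0.26 (0.21 to 0.31). Inmt, a methyltransferase abundant in lung fibroblasts, was at 2595 and 2104 CPM against 7241 and 5555. Further low genes of the ranking were Ppp1r14a, Tagln2, Cdo1, Chchd1, G0s2 and Gyg, with ratios between 0.19 and 0.37. Without the SNAT2 cells that hold Pi16, Hhip, Aspn or Myh11 the Tmsb4x ratio was 0.35 and 0.36, and in cells with 500 to 750 genes the level was 2592 and 2507 CPM against 5860 and 6870.

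Genes of the lipid-handling fibroblast were low or near level. Of 17 measured genes of fatty acid uptake, lipid droplets and lipofibroblasts 7 were lower and 0 higher, with a median log2 ratio of −0.45 in HFD and −0.59 in NC. Among all measured genes 24.4% were lower and 10.2% higher. Tcf21, a transcription factor of lipofibroblasts, was at 284 and 262 CPM against 752 and 656, ratios of 0.38 (0.32 to 0.44) and 0.40 (0.34 to 0.46). Plin2, the coat protein of lipid droplets, was at 109 and 84.0 CPM against 209 and 177. Fabp3, a fatty acid binding protein, had ratios of 0.20 (0.12 to 0.32) and 0.34 (0.21 to 0.52). Against Asc1 cells that fail the filter the list median was 0.03 in HFD and −0.58 in NC.

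The amino acid axis that the label names was followed through a list of transporters and lists of the sensing pathways. Of 16 measured amino acid transporters 2 were higher and 0 lower, with median log2 ratios of 0.11 and 0.01. The 2 were Slc38a9, a lysosomal arginine sensor, and Slc36a4, named here after their values were seen, and each was at 24.8 to 31.4 CPM in SNAT2 cells with an interval that reached below 1 in 1 library. Slc1a5, a glutamine exchanger, was at 148 and 174 CPM against 106 and 118, ratios of 1.40 (1.10 to 1.76) and 1.48 (1.22 to 1.79). ATF4 is the transcription factor that drives the amino acid response. Of 11 measured targets of that response 0 were higher and 4 lower. These were Atf3 at ratios of 0.49 and 0.51, Nupr1 at 0.56 and 0.44, Eif4ebp1 at 0.30 and 0.43, and Cebpb at 0.63 and 0.62. Of all measured genes 10.2% were higher and 24.4% lower, and with 11 members the difference from these shares was not tested. Of 23 regulators of mTORC1 and nutrient sensing 2 were higher and 6 lower, shares near the 10.2% and 24.4% of all measured genes. The lower ones included Lamtor2, Lamtor4 and Lamtor5 of the lysosomal Ragulator complex, between 0.33 and 0.44 of their Asc1 level.

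Matrix genes leaned to the high side. Of 16 measured collagens 9 were higher and 0 lower, with a median log2 ratio of 0.80 in HFD and 0.85 in NC. All measured genes gave shares of 10.2% higher and 24.4% lower. Col1a1, a chain of fibrillar collagen I, was at 679 and 830 CPM against 348 and 368, ratios of 1.95 (1.74 to 2.17) and 2.26 (2.06 to 2.47). Col14a1, a collagen of adventitial fibroblasts, was at 124 and 137 CPM against 19.5 and 24.5, ratios of 6.37 and 5.58. Among 21 elastic fibre and matrix glycoproteins 5 were higher, including Eln at 2.30 and 1.997 and Lama2 at 2.80 and 2.39, and 1 was lower, Mfap4, at 0.59 and 0.62. Without the cells that hold Pi16, Hhip, Aspn or Myh11 the collagen median was 0.43 in HFD and 0.71 in NC.

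The 12 genes ranked highest, by the interval bound nearest to 1 among genes with at least 50 CPM, included many markers of other stromal cells, and few cells carried them. Aqp1, a water channel, was at 135 CPM in HFD and 121 in NC against 4.41 and 3.62, ratios of 30.6 (19.1 to 51.0) and 33.4 (20.9 to 55.7). Pi16 was at 142 and 121 CPM against 5.10 and 5.76, ratios of 27.9 (17.9 to 44.8) and 21.0 (14.1 to 31.8). Hhip, an inhibitor of hedgehog signalling, was at 377 and 359.6 CPM against 36.0 and 46.6, ratios of 10.5 and 7.72. Meg3, Ebf1, Col15a1, Cd9, Aspn, Igfbp5, Lum, Myh11 and Abcc9 had ratios between 6.40 and 37.8. The 10 SNAT2 cells with the most counts of each gene held from 33.4 to 74.0% of its counts, so each ratio rests on a small number of cells. Without the cells that hold Pi16, Hhip, Aspn or Myh11 Igfbp5 was at ratios of 1.16 and 1.72, Cd9 at 3.93 and 5.63, Abcc9 at 5.02 and 3.55, and Meg3 at 10.97 and 17.3. Aqp1, Ebf1, Col15a1 and Lum then fell under the minimum of effective counts.

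Markers of the alveolar and the other stromal patterns overlapped in part within the subset. Pi16 had a count in 53 HFD cells (6.54%, 4.94 to 8.47%) and 90 NC cells (9.10%, 7.38 to 11.1%), against 1.32% and 1.61% of the deeper Asc1 cells. Hhip had a count in 90 and 109 cells (11.1% and 11.02% against 3.92% and 6.23%), and Myh11, a smooth muscle myosin, in 96 and 48 (11.9% and 4.85% against 3.65% and 1.93%). Slc7a10 had a count in 122 and 108 SNAT2 cells, of which 1 and 2 also held Pi16 and 3 and 3 also held Hhip. Npnt, the alveolar marker, had a count in 51.7% and 51.6% of SNAT2 cells and in 92.5% and 90.6% of Asc1 cells, or in 41.6% and 39.3% against 68.2% and 66.6% after thinning to 1000 counts. Of the 53 and 90 Pi16 cells, 13 and 19 held Npnt and 14 and 14 held Hhip, the latter 26.4% and 15.6% against 11.1% and 11.02% of the whole subset. Of the 96 and 48 Myh11 cells, 41 and 17 held Npnt and 9 and 11 held Hhip. After thinning to 1000 counts Pi16 had a count in 5.23% and 6.55% of SNAT2 cells against 0.338% and 0.456% of Asc1 cells. Hhip had one in 8.34% and 9.01% against 1.49% and 2.58%. The background of free RNA was not estimated beyond these shares, and no doublet caller was run.

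Other genes of the marker lists were compared between SNAT2 cells with and without a count of each marker. SNAT2 cells with a count of Pi16 had Dcn, an adventitial proteoglycan, at 2501 CPM in HFD and 3026 in NC, against 417 and 593 in SNAT2 cells without one. Dcn was also higher in cells with a count of Hhip, at 1432 and 1442 CPM against 502 and 765. Aspn was at 803 and 859 CPM in cells with Hhip against 45.9 and 23.4, and at 210 and 422 in cells with Myh11 against 122 and 98.7. Cells with a count of Myh11 had Acta2, smooth muscle actin, at 1700 and 1267 CPM against 173 and 131, and in NC had Hhip at 1339 CPM against 316. Companion genes were thus not limited to 1 marker each. Cells with a count of Npnt had Inmt at 3421 and 2699.9 CPM against 1358 and 1286, and Macf1 at 7212 and 6115 CPM against 3082 and 2522. Slc38a2 was nearly level across such a divide, at 579 and 521 CPM in cells with Npnt and 533 and 493 in cells without. Groups chosen by 1 gene favour deeper cells, so only CPM is compared here.

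Cells with Npnt or Slc7a10 and none of Pi16, Hhip and Myh11 made up 46.4% of the subset in HFD (42.9 to 49.9%) and 47.8% in NC (44.7 to 51.0%). Cells with the reverse pattern made up 17.04% and 15.98%, against 0.744% and 0.994% of Asc1 cells. That pattern requires no count of Npnt or Slc7a10, and shallow cells miss such counts more often. For these shares the cells were not thinned to equal depth. Cells with genes of both sets made up 9.26% and 6.27%, that is 75 and 62 cells beside the 138 and 158 with Pi16, Hhip or Myh11 alone. They made up 7.78% and 8.51% of Asc1 cells. Cells with none of these 5 genes made up 27.3% and 29.9% and had a median of 361 and 456 detected genes, the lowest of the 4 kinds in each library. A count of a marker does not by itself name the type of a cell, and these kinds are given as patterns of detection.

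Marker lists of other cell types were summed over the same cells. The 10 alveolar markers summed to 8656 CPM in HFD and 6667 in NC in SNAT2 cells, against 15958 and 11800 in Asc1 cells, and all 10 had counts. Sums of the adventitial list were 1316 and 1905 CPM against 429 and 649, with 9 and 10 of 10 genes detected in SNAT2 cells and Dpp4 at 0 in HFD. The duct myofibroblast list, 6 of 6 detected, summed to 1584 and 1515 CPM against 817 and 823, the pericyte list, 7 of 7 detected, to 192 and 239 against 20.8 and 37.0. Smooth muscle genes, 6 of 6 detected, summed to 1141 and 679 CPM against 453 and 629. In the labels with the highest sums, the adventitial list reached 10306 and 11449 CPM in Pi16 fibroblasts, the duct list 7886 and 6339 in myofibroblasts and the smooth muscle list 27688 and 27244 in pericytes. The pericyte list reached only 812 and 593 CPM in pericytes, and so stood closest to its SNAT2 level. Pecam1, Cdh5, Epcam, Sftpc, Ptprc, Cd3e and Msln, defining markers of endothelial, epithelial, immune and mesothelial cells, had 0 counts in SNAT2 cells of both libraries. All of these but Cdh5 had 0 counts under all 6 labels in both libraries, so these zeros do not set the subset apart. Epithelial genes summed to 84.1 and 45.3 CPM against 34.8 and 30.9 in Asc1 cells, with 4 and 3 of 7 genes detected, and immune genes to 20.1 and 43.0 CPM against 13.3 and 21.5, with 5 and 6 of 8 detected. The endothelial list, of which 4 of 6 genes were found in the tables, summed to 0 and 1.94 CPM with 0 and 1 genes detected, and the mesothelial list to 1.58 and 0.774 CPM with 2 of 4 detected. Beyond leaving out cells with Pi16, Hhip, Aspn or Myh11, the part of other cells in the contrasts above was not tested.

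HFD was then set against NC within the SNAT2 fibroblasts, with the same ratio in Asc1 fibroblasts beside it. Of 3463 genes with at least 50 effective counts 221 were higher in HFD (6.38%) and 354 lower (10.2%), by a ratio of 1.5 in 1 comparison. Of the 10932 genes with that depth in Asc1 cells 4.89% were higher and 5.62% lower. Among 3458 genes measured under both labels 6.39% were higher and 10.2% lower in SNAT2 cells, and 3.07% and 4.40% in the Asc1 cells, whose sums are larger. At 50 effective counts the counting interval of an equal ratio runs from 0.55 to 1.81, which reaches past the threshold. With a minimum of 200 effective counts 31 of 817 genes were higher (3.79%) and 58 lower (7.10%). Slc38a2 was at a ratio of 1.10 (0.95 to 1.28) in SNAT2 and 0.98 (0.93 to 1.04) in Asc1 cells. Slc7a10 was higher in HFD under both labels, at 1.60 (1.21 to 2.11) in SNAT2 and 1.54 in Asc1 cells.

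**Figure D5:**
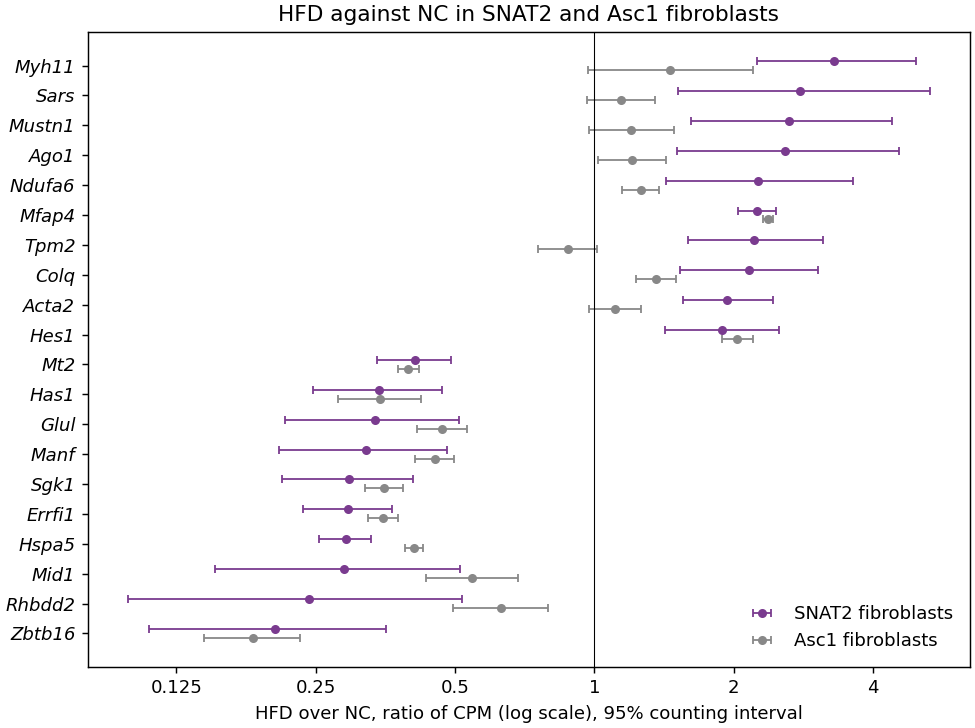
Ratio of CPM in HFD over NC (x axis, log scale) for the 10 highest and 10 lowest ranked genes in SNAT2 fibroblasts (purple), with the same ratio in Asc1 fibroblasts (grey). Bars are 95% intervals for counting error. The lower genes lie below 1 under both labels, while Myh11, Tpm2, Mustn1 and Acta2 lie further from 1 in SNAT2 than in Asc1 fibroblasts.

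Lower levels in HFD were found in glucocorticoid targets and chaperones of the endoplasmic reticulum. Of 14 measured glucocorticoid targets 8 were lower in SNAT2 cells and 0 higher, with a median log2 ratio of −0.80, and 8 were lower in Asc1 cells, with a median of −0.73. Among all genes measured under both labels, 10.2% were lower and 6.39% higher in SNAT2 cells. In Asc1 cells 4.4% were lower and 3.07% higher. Zbtb16, a transcription factor induced by glucocorticoids, was at 25.3 CPM in HFD and 124 in NC, a ratio of 0.20 (0.11 to 0.36), and 0.18 in Asc1 cells. Its HFD sum in SNAT2 cells rests on 21 cells, and the 10 with the most counts held 73.4% of it. Errfi1, a feedback inhibitor of EGF receptor signalling, was at 175 and 597 CPM, a ratio of 0.29, and Sgk1, a kinase, at 82.9 and 281 CPM, a ratio of 0.30. Of 14 unfolded protein response genes and chaperones 8 were lower and 0 higher, with a median of −0.61 in SNAT2 and −0.44 in Asc1 cells. Hspa5, the chaperone BiP, was at 492 CPM in HFD and 1697 in NC in SNAT2 cells, a ratio of 0.29 (0.25 to 0.33), and at 491 and 1205 CPM in Asc1 cells, a ratio of 0.41 (0.39 to 0.43). With 1 library per diet the gap between the 2 ratios has no replicate check. Whereas Hspa5 in NC was 1.41 times as high in SNAT2 as in Asc1 cells, the 2 labels were level in HFD, at a ratio of 1.003. Manf, a secreted stress factor, was at 0.32 (0.21 to 0.48) in SNAT2 and 0.45 in Asc1 cells.

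Among the other low genes, Has1, a hyaluronan synthase, was at 87.3 and 254 CPM, a ratio of 0.34 under both labels, and Mt2, a metallothionein, at 0.41 and 0.40. Glul, Mid1 and Rhbdd2 were at 0.34, 0.29 and 0.24 in SNAT2 cells and at 0.47, 0.54 and 0.63 in Asc1 cells. For Mid1 and Rhbdd2 the HFD sum rests on 19 and 8 cells. Il6, an inflammatory cytokine, was at 0.48 (0.38 to 0.59) against 0.72 in Asc1 cells, and Ptgs2, the inducible cyclooxygenase, at 0.35 (0.22 to 0.52) against 0.77. Both genes were lower in HFD under each label, by a larger factor in the SNAT2 cells.

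Higher levels in HFD included genes of contractile cells. Myh11 was at 167 CPM in HFD and 50.7 in NC in SNAT2 cells, a ratio of 3.30 (2.25 to 4.94), and at 10.7 and 7.33 CPM in Asc1 cells, a ratio of 1.46 (0.97 to 2.21). Tpm2, a muscle tropomyosin, was at 2.22 (1.59 to 3.12) in SNAT2 and 0.88 (0.76 to 1.01) in Asc1 cells. Mustn1 was at 2.64 (1.62 to 4.41) and Acta2 at 1.94 (1.55 to 2.43), against 1.20 and 1.11. The smooth muscle list summed to 1141 CPM in HFD and 679 in NC in SNAT2 cells, and cells with a count of Myh11 were 11.9% and 4.85% of the subset. Cells labelled pericytes, in which smooth muscle genes are highest, numbered 730 in HFD and 318 in NC. Without the SNAT2 cells that hold Pi16, Hhip, Aspn or Myh11 the ratio was 2.01 for Tpm2 and 1.56 for Acta2, and in filtered cells Acta2 was at 1.34. The part of contractile cells in the Myh11 ratio was not tested.

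The other high genes shared their direction with the Asc1 cells. Mfap4, a microfibril protein, was at 2095 and 934 CPM, a ratio of 2.24 (2.04 to 2.47), and 2.37 in Asc1 cells. Hes1, a target of Notch signalling, was at 220 and 117 CPM, a ratio of 1.88 (1.42 to 2.50), and 2.04 in Asc1 cells. Colq, Sars, Ago1 and Ndufa6 were at 2.15, 2.78, 2.58 and 2.26 in SNAT2 cells and between 1.14 and 1.36 in Asc1 cells. The Asc1 interval of Sars, 0.96 to 1.36, held 1. Few SNAT2 cells had a count of these genes: 45 in HFD and 29 in NC for Sars, 57 and 33 for Ago1, 52 and 40 for Ndufa6, and 97 and 71 for Colq. In SNAT2 cells 4 of 13 mitochondrially encoded chain transcripts were higher in HFD, where 6.38% of all measured genes were. Their median log2 ratio was 0.44 in SNAT2 and 0.16 in Asc1 cells. In filtered cells that median was 0.20, and the share of SNAT2 cells over 10% mitochondrial counts was 57.0% in HFD and 50.9% in NC.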

How the data were processed

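Single-cell libraries of mouse lung fibroblastic stroma, 1 per diet, were made with a 10x Genomics 3′ kit, per the labels' protocols. STAR and the mm39 build were used, per the submitters' processing notes; versions, annotation and cell filters are not given in the sources used here. For 21014 genes the deposited values fit log2 of CPM plus 1 in each cell, a scale read from the values themselves. Detected genes (a count per cell), mitochondrial and ribosomal percent and the total, an expected count, came from the deposited tables, per the file headers. Labels were the authors' finer annotation.

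To obtain counts, the log was inverted and the CPM scaled to the cell's total. The result lay within 0.01 of a whole number for 98.8% of values above 0 in HFD and 98.96% in NC, and all were rounded. They summed to about 75526300 in HFD and 73101900 in NC. Whether a deposited total counts molecules or reads is not given, so a count may be a read. Recovered counts varied more than single molecules: the variance factor, the median over rare genes of summed squared counts over summed counts, was 4.33 and 3.48 in SNAT2 cells and 4.95 and 4.00 in Asc1 cells of HFD and NC. Rare genes were those with a count in at least 5 cells and at most 2% of cells. Counts were summed per library and label. Ratios carry exact conditional 95% Poisson intervals on effective counts, and shares exact Clopper-Pearson intervals; both cover counting error only. A sum of 0 was set to 3 counts.

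A gene name table gave symbols for 20180 identifiers. Lengths came from an annotation of an older build, used for lengths alone. Near-identical copies can share reads, so mitochondrially encoded, ribosomal protein and thymosin values are uncertain. Antisense pairs such as Kcnq1ot1 are too, since strand use in counting is not given.

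Named genes were the 12 highest and 12 lowest in SNAT2 over Asc1 and the 10 highest and 10 lowest in HFD over NC, ranked by the interval bound nearest to 1 among genes with at least 50 effective counts and 50 CPM, plus up to 4 members per list and the 5 markers; some of these are not reported here. Left out of the ranking were predicted genes and genes of haemoglobin, immunoglobulins, ribosomal proteins and the mitochondrial genome. The subset, gene lists and rules were chosen with earlier results of these data known. The 24 gene lists are described by their members with enough counts; of these, names outside the rule are given for counts of 5 or fewer, chosen after their values were seen. The calculation was tested on simulated data. Python 3.11.15, numpy 2.4.6, scipy 1.17.1, pandas 2.3.3 and matplotlib 3.10.9 were used.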

Additional observations from a re-analysis of the deposited data

Results flagged for a closer look

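Nupr1, a stress-induced nuclear protein and member of the amino acid response list, went in opposite directions with diet under the 2 labels. HFD over NC was 1.20 (1.03 to 1.40) in SNAT2 fibroblasts, at 542 CPM in HFD and 452 in NC, and 0.94 (0.91 to 0.98) in Asc1 fibroblasts, at 972 and 1029 CPM. Both differences are small, each rests on 1 library per diet, and the difference between the labels was not tested.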

How the results depend on the processing

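No paired analysis was possible because each diet is 1 library, with no replicate numbers, and no test was made, so alternatives were compared by value. The number of genes higher in SNAT2 than in Asc1 fibroblasts, 894, was 1352 in filtered cells, 225 with Asc1 cells that fail the filter as reference, 86 in cells under 500 genes of both labels, 1648 without the 20 most abundant genes, 330 and 1748 with minimums of 200 and 10 effective counts, and 222 at a ratio of 2. The number lower, 2145, was 1560, 376, 159, 1546, 1411, 2683 and 1066 under the same settings. Higher genes made up 41.9% of those called with median-of-ratios scaling, 42.6% without mitochondrial counts and 51.6% without the 20 most abundant genes, against 29.4%; the last moved the median of all genes from −0.15 and −0.11 to 0.10 and 0.11. For HFD over NC, 221 higher and 354 lower became 137 and 169 in filtered cells, 31 and 58 with a minimum of 200, 1365 and 1820 with a minimum of 10, and 28 and 86 at a ratio of 2; of those called, 48.8% were higher with median-of-ratios scaling, against 38.4%. The smaller counts with filtered cells, a minimum of 200 or Asc1 cells that fail the filter come with fewer genes measured. The genes called changed as well. Of HFD over NC calls in filtered cells, 57 of 137 higher and 104 of 169 lower genes were also called in all cells. These were 25.8% and 29.4% of the first calls. For SNAT2 over Asc1, 696 of 1352 higher and 1412 of 1560 lower genes were shared in this way.

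The SNAT2 share of SNAT2 plus Asc1 cells, 21.5% and 20.98%, was 7.92% and 8.98% in filtered cells, and of all cells it was 11.6% and 10.97%. Filtered SNAT2 medians were 736 and 703 genes, 6.27% and 6.44% mitochondrial counts and 4009 and 3037 total counts. Of the named genes' values 415 lay within the counting interval of the first value, 197 moved and 1 past a ratio of 1.5 changed direction, Neat1 in HFD, at −0.17 (log2) against the 13 Asc1 cells under 500 genes. Of list medians 561 stayed within 0.2 (log2) and 172 moved. Among medians past a ratio of 1.5, 1 changed sign, the mitochondrially encoded list in NC, at −0.21 against Asc1 cells that fail the filter; the cause was not tested. Among smaller medians 66 changed sign, including the lipid-handling list in HFD, at 0.03 with that reference. A gene has no value where it fell under 50 effective counts. Leaving out cells with Pi16, Hhip, Aspn or Myh11 was chosen after seeing the data. Depth limits single genes: at 200 effective counts an equal ratio has an interval of 0.60 to 1.59 in HFD for SNAT2 over Asc1.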

Other observations

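Lists not described above showed no shared shift of SNAT2 against Asc1 fibroblasts as large as those of the respiratory chain or the ribosome. Their counts are to be read against the 10.2% of all measured genes that were higher and the 24.4% that were lower. Of 19 unfolded protein response genes and chaperones 1 was higher, Hyou1, at ratios of 2.51 and 2.48, and 1 was lower, with median log2 ratios of −0.03 and 0.00. Of 25 immediate early genes 1 was higher and 2 lower, Atf3 and Fos, the latter at 0.54 and 0.56. Of 16 cytosolic heat shock genes 1 was higher and 4 lower, Hspb1, Cryab, Dnajb1 and Hspe1, each between 0.34 and 0.46. Of 18 p53 targets and cell death regulators 1 was higher, Mdm2, at 1.76 and 1.84, and 5 lower, with Gadd45b at 0.44 and 0.49. Of 21 interferon response and MHC class I genes 2 were higher and 5 lower. The lower counts of the heat shock and interferon lists are near that share. Of 17 cholesterol synthesis genes 0 were higher and 4 lower, and of 14 glucocorticoid targets 1 was higher and 4 lower, again near it.

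Signalling genes were divided. Of 23 niche signals of the WNT, BMP and growth factor families 4 were higher in SNAT2 fibroblasts, Wnt5a, Ptch1, Hhip and Tgfb3, and 3 lower, Wnt2, Fgf7 and Vegfd. Wnt5a was at 31.6 and 37.2 CPM against 13.6 and 11.6, ratios of 2.32 (1.31 to 3.91) and 3.19 (1.98 to 5.01), and Wnt2 at 86.5 and 45.3 CPM against 151 and 118, ratios of 0.57 and 0.38. Of 19 NF-kB subunits and feedback inhibitors 3 were higher, Nfkb1, Nfkb2 and Birc3, with Nfkb1 at 1.94 in each library, while Nfkbia, the inhibitor, was lower at 0.52 and 0.54. Of 13 chemokines and cytokines 1 was higher, Lif, at 2.91 and 2.81, and 2 were lower, among them Cxcl14, at 0.46 and 0.45.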
